A study of Mus musculus with 3 samples.

Results

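Secreted chemokine genes of natural killer (NK) cells, 6 of the 22350 protein-coding genes of the mouse annotation, were examined for Runx3 binding and for the histone mark H3K4me1 in resting splenic NK cells. They were Ccl3, Ccl4, Ccl5, Ccl6, Ccl9 and Xcl1, taken by gene symbol, each as its gene body with 20 kb on either side. The deposited data were 2 lists of enriched regions from chromatin immunoprecipitation sequencing (ChIP-seq), 1 with an in-house polyclonal antibody to the transcription factor Runx3 and 1 with a monoclonal antibody to monomethylated lysine 4 of histone H3 (H3K4me1). The study joined its biological repeats before calling regions, while the labels call each sample the first experiment. Both lists came from freshly isolated, untreated NK cells of wild type ICR mice, and a library made with non-immune rabbit serum (NIS) from the same kind of cells was the background for calling regions. The age of the mice and the number pooled are not given in the sources used here, and the cells were sorted on NKp46 per the labels and on DX5 per the study's methods. There was 1 sample per antibody and 1 list each, with coordinates and no read counts, scores or p-values. Therefore no value has a spread between replicates, no test was run, and the depth behind each region is unknown. Counts and percentages are descriptions of these 2 lists, and each 95% Wilson interval given for a share allows for counting error alone.

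Chemokines are small secreted proteins that guide leukocytes through G protein-coupled receptors. Activated NK cells are a well-known source of the CC chemokines Ccl3, Ccl4 and Ccl5, and of Xcl1 (lymphotactin), the ligand of Xcr1 on cross-presenting dendritic cells. Ccl6 and Ccl9 are CC chemokines of the mouse best known from myeloid cells, and act on Ccr1. Runx3 binds DNA through the RUNX consensus, and H3K4me1 is a mark of enhancer chromatin that also borders promoters in use.

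All 6 genes had at least 1 Runx3 peak in their window, against 51.0% of all protein-coding genes with windows built in the same manner. The windows held 23 different Runx3 peaks, 18 of them in 1 window and 5 in the windows of 2 neighbouring genes, and 15 different H3K4me1 regions. The numbers of peaks per window were 8 at Ccl3, 7 at Ccl5, 4 at Ccl4, 4 at Ccl9, 3 at Xcl1 and 2 at Ccl6. Neighbouring windows overlap, so the 6 genes are not independent of each other. With 4 or more peaks, 4 of the 6 genes belonged to the 7.32% of protein-coding genes that had as many. The median over all protein-coding genes was 1.00 peak per window. Longer genes have longer windows, and among the 8856 genes of at most 10 kb, as these 6 are, the shares with as many peaks were 0.181% for Ccl3, 0.339% for Ccl5, 4.62% for Ccl4 and Ccl9, 10.1% for Xcl1 and 20.6% for Ccl6.

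The start sites divided the genes. Ccl3, Ccl4 and Xcl1 had a peak whose midpoint lay within 1 kb of their start, as 27.2% of protein-coding genes did. Ccl5, Ccl6 and Ccl9 had none there, and their nearest Runx3 midpoints lay 3.30, 12.7 and 9.32 kb from the start. The DNA before the 3 bound starts is shown to let these promoters be compared by eye, with Ccl9 as a start that carries a RUNX match but no peak. Each line gives 300 bases that end just before the annotated start, read 5′ to 3′ on the strand of the gene from the mm9 reference, with RUNX matches of either strand in capitals. In a match on the opposite strand, TGTGGT reads ACCACA and TGTGGC reads GCCACA. Their positions are chr11:83462858-83463157 for Ccl3, chr11:83475786-83476085 for Ccl4, chr1:166865659-166865958 for Xcl1 and chr11:83392139-83392438 for Ccl9, with Ccl4 on the plus strand and the others on the minus strand.

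Ccl3: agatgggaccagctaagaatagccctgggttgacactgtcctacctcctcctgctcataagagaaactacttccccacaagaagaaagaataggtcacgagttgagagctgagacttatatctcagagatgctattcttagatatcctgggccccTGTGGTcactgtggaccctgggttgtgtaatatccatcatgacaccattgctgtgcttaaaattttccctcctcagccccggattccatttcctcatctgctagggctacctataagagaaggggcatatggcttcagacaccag

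Ccl4: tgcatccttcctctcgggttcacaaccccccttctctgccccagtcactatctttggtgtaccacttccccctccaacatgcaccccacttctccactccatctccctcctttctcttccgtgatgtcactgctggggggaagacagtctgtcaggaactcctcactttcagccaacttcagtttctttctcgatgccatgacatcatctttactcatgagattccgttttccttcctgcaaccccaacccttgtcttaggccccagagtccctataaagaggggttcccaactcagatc

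Xcl1: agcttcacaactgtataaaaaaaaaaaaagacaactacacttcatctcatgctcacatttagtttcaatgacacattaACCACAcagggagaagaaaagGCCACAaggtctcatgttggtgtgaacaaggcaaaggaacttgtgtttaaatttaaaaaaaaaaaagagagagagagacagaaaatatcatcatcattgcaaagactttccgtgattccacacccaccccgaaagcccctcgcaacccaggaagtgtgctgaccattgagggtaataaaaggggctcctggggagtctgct

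Ccl9: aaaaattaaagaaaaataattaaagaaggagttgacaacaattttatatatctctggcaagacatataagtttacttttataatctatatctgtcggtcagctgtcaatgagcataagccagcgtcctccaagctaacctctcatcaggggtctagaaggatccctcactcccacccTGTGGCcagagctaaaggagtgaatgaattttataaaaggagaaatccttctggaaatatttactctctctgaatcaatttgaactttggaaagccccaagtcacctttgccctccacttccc

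Positions in these windows are counted back from the annotated start, with -1 the base before it. The Ccl3 window held 1 RUNX match, from -145 to -140, which lay 5 bp from the midpoint of the peak over that start. The Xcl1 window held 2, from -222 to -217 and from -201 to -196, both on the opposite strand. The Ccl9 window held 1, from -123 to -118, and the windows of Ccl4, Ccl5 and Ccl6 held 0. Of 22350 protein-coding promoters of the same length, 42.8% held a match. Thus a match before the start and a peak over the start did not go together at 2 of the 6 genes, Ccl4 with a peak alone and Ccl9 with a match alone. A match of letters is a description and not evidence of binding.

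Peaks away from the starts are shown by the 200 bases around the midpoint, read on the plus strand, for 5 of the peaks. Peaks are named after the nearest member start whose window holds them and numbered along the chromosome. Those shown are the Ccl5 upstream peak with the most central matches, the peak shared by the Ccl9 and Ccl6 windows, the Ccl6 upstream peak, the Xcl1 upstream peak and a peak between Ccl3 and Ccl4 that lies in both of their windows. They lie at chr11:83348643-83348842, chr11:83382715-83382914, chr11:83419169-83419368, chr1:166883756-166883955 and chr11:83468182-83468381. RUNX matches of either strand are again in capitals.

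Ccl5 peak 2: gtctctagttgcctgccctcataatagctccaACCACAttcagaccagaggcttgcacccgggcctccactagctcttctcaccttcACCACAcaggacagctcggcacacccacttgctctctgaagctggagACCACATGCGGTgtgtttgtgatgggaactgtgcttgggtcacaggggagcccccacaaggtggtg

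Ccl9 peak 4: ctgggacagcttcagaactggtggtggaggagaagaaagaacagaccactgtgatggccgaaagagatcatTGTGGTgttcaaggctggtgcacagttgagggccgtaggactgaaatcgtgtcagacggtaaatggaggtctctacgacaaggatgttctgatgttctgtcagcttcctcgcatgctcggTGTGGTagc

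Ccl6 peak 1: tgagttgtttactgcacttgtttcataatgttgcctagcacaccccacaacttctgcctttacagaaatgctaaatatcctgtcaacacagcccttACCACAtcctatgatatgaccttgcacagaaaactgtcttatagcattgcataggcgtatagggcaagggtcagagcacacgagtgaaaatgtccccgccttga

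Xcl1 peak 3: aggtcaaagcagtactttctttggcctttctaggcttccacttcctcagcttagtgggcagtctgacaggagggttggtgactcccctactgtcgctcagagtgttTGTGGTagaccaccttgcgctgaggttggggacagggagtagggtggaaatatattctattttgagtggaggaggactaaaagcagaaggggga

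Ccl3 peak 6: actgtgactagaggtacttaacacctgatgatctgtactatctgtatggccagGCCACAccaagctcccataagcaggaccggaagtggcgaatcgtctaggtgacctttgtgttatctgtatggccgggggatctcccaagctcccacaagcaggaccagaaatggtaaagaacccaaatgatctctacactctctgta

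The Ccl5 fragment held 4 central matches, of which the last 2 adjoined each other on opposite strands. The Ccl6, Xcl1 and Ccl3 fragments each held 1, at 1, 9 and 44 bp from the midpoint.

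The other 5 genes besides Xcl1 lie together on chromosome 11 in the order Ccl5, Ccl9, Ccl6, Ccl3 and Ccl4, of which only Ccl4 is transcribed from the plus strand. From the first to the last Runx3 peak around them, chr11:83340472-83476314, 21 peaks lay in 136 kb. This is 15.5 peaks per 100 kb, against 0.588 per 100 kb over the 20 chromosomes with peaks. Taking each of the 15524 Runx3 peaks as a first peak, as many peaks in the same length followed from 5 of them (0.0322%). The first peak of this stretch is itself among the 5. The stretch was cut at its own first and last peak, so empty DNA beyond them is not in its 136 kb. Within the stretch the median gap between neighbouring peaks was 2973 bp, with a range from 196 bp to 35.5 kb. The nearest peaks outside it were 224 kb before and 65.6 kb after.

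**Figure D1:**
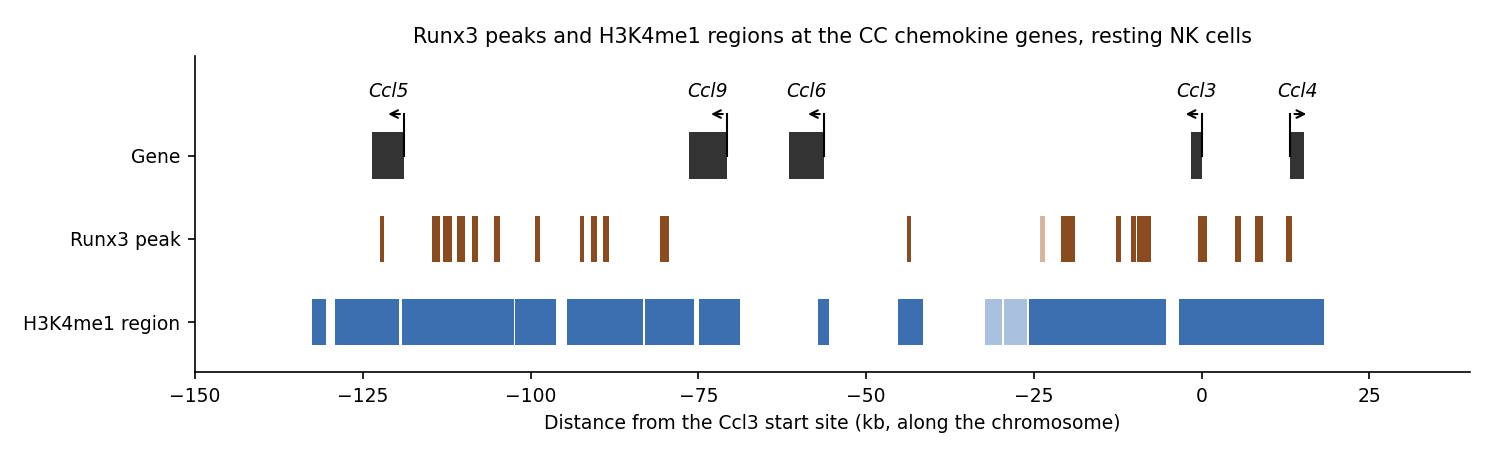
Runx3 peaks (brown) and H3K4me1 regions (blue) around Ccl5, Ccl9, Ccl6, Ccl3 and Ccl4 on chromosome 11, with the distance from the Ccl3 start in kb on the x axis and the gene bodies and start directions on top. Pale bars are rows outside all 6 windows, and other genes of the interval are not drawn. By midpoint, 10 peaks stand between Ccl5 and Ccl9, 6 between Ccl6 and Ccl3 and 4 between Ccl3 and Ccl4. The Ccl5 body holds 1, and 0 stand between Ccl9 and Ccl6. Of the 6, Ccl6 peak 1 stands apart from the others.

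The peaks of the cluster were unevenly divided among the stretches between genes. By midpoint, 10 lay in the 42.4 kb between Ccl5 and Ccl9, 6 in the 54.8 kb between Ccl6 and Ccl3, and 4 in the 13.2 kb between Ccl3 and Ccl4. The body of Ccl5 held the remaining 1. None of the 21 midpoints lay in the 9.24 kb between Ccl9 and Ccl6, in the bodies of Ccl9, Ccl6, Ccl3 or Ccl4, or in the 20 kb after Ccl4. Between Ccl3 and Ccl4, whose start sites face away from each other, each end of the interval had a peak.

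Ccl3 (ENSMUSG00000000982.5, chr11:83461346-83462857, minus strand) encodes macrophage inflammatory protein 1 alpha. Its window held the most peaks of the 6, and 0.828% of protein-coding genes had 8 or more. Ccl3 peak 5 (chr11:83462376-83463634, 1259 bp) covered the start and overlapped UTR and coding bases of the gene, with its midpoint 0.148 kb upstream. Downstream of the gene lay Ccl3 peaks 1 to 4, at 19.9, 12.4, 10.1 and 8.57 kb from the start. For peak 1 the nearest annotated start was that of E230016K23Rik, at 7800 bp. For peaks 2 to 4 it was that of Rpl9-ps1, at 8655, 6399 and 4835 bp. Among protein-coding starts, that of Ccl3 was the nearest to each. Of peaks 1 to 4, peak 1 (chr11:83441938-83443990, 2053 bp) and peak 4 (chr11:83453269-83455306, 2038 bp) were the 2 widest of all 23, wider than 99.6% and 99.5% of the Runx3 list. Peaks 2 and 3 were narrow, at 661 and 697 bp, and peak 6 (933 bp) lay 5.42 kb upstream, on the way to Ccl4. Just outside the window, 21.8 kb from the gene body, was a peak of 736 bp (chr11:83438785-83439520) that no window held.

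Ccl4 (ENSMUSG00000018930.3, chr11:83476086-83478185, plus strand) encodes macrophage inflammatory protein 1 beta. All 4 peaks of its window also lay in the window of Ccl3. Ccl4 peak 2 (chr11:83475480-83476314, 835 bp) covered the start and overlapped UTR and coding bases, with its midpoint 0.189 kb upstream. Ccl4 peak 1 (chr11:83470767-83471950, 1184 bp) lay 4.73 kb upstream. Ccl4 thus had peaks on its upstream side, and the next peak downstream of its body was 63.7 kb away.

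Ccl5 (ENSMUSG00000035042.2, chr11:83339280-83344020, minus strand) encodes RANTES, a chemokine that attracts T cells, monocytes and NK cells. Its 7 peaks were matched or passed by 1.39% of protein-coding genes. Ccl5 peak 1 (chr11:83340472-83340975) lay in an intron, 3.30 kb downstream of the start, and at 504 bp was the narrowest of the 23. The other 6 formed an upstream series with midpoints 4.72, 6.45, 8.52, 10.6, 13.9 and 19.9 kb from the start. Their widths were 1153, 1399, 1165, 887, 796 and 826 bp, in the same order, so the 3 nearest to the gene were the widest. The last, Ccl5 peak 7 (chr11:83363472-83364297), crossed the edge of the window. All 6 were intergenic, and no start of another annotated gene was nearer to any of them.

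Ccl9 (ENSMUSG00000019122.7, chr11:83386421-83392138, minus strand) had 4 peaks, none of them upstream of its start. They lay beyond the 3′ end, 21.6, 19.8, 18.0 and 9.32 kb downstream of the start, with widths of 663, 822, 946 and 1286 bp. The same 4 peaks lay 26.5, 28.3, 30.1 and 38.8 kb upstream of the Ccl5 start, beyond its window. Their nearest annotated start was in each case that of a Ccl9 transcript, and which gene they act on was not measured.

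Ccl6 (ENSMUSG00000018927.3, chr11:83401384-83406589, minus strand) had the fewest peaks, and 27.5% of protein-coding genes had 2 or more. Ccl9 peak 4 (chr11:83382172-83383457) was the first, beyond the 3′ ends of both genes. The second, Ccl6 peak 1 (chr11:83418942-83419596, 655 bp), lay 12.7 kb upstream in an intron of the long noncoding RNA gene E230016K23Rik. With 5 kb on either side in place of 20 kb, Ccl6 had 0 peaks and was the exception among the 6, since Ccl9 kept 1 and the other 4 genes kept 2 each.

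Xcl1 (ENSMUSG00000026573.7, chr1:166861775-166865658, minus strand) is the member outside chromosome 11, and 14.1% of protein-coding genes had 3 or more peaks. Xcl1 peak 2 (chr1:166865412-166866523, 1112 bp) covered the start and overlapped UTR and coding bases, with its midpoint 0.310 kb upstream. Xcl1 peak 1 (chr1:166863710-166864494, 785 bp) lay in an intron, 1.56 kb downstream of the start, and peak 3 (chr1:166883411-166884301, 891 bp) was intergenic and 18.2 kb upstream. The next peak on that side lay 24.3 kb from the body, outside the window. On the downstream side the next was 472 kb away.

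**Figure D2:**
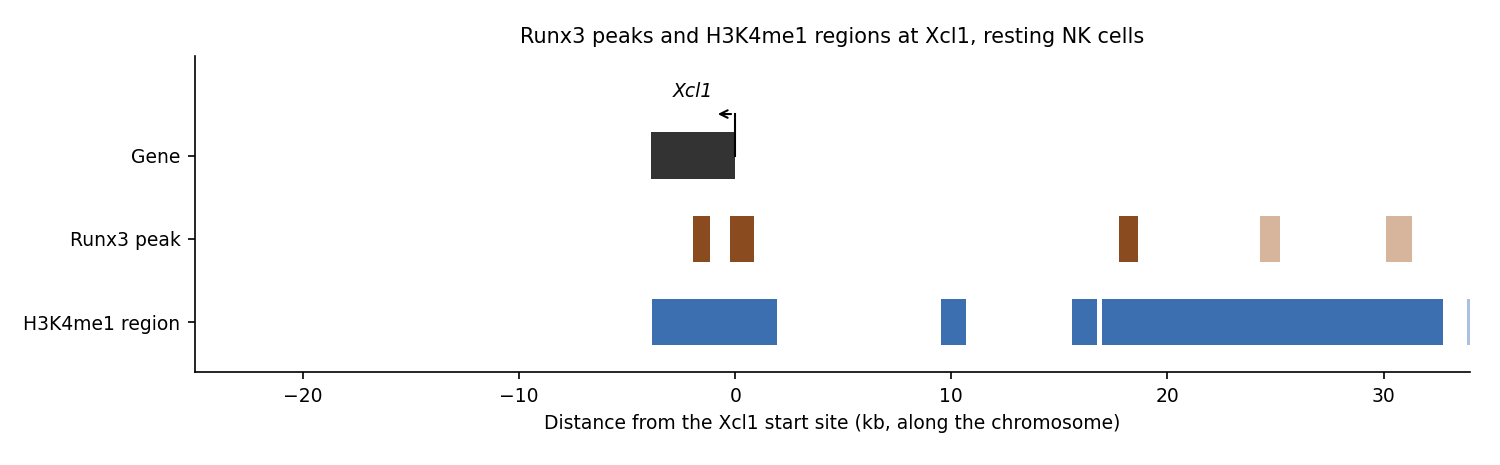
Runx3 peaks (brown) and H3K4me1 regions (blue) around Xcl1 on chromosome 1, with the distance from the Xcl1 start in kb on the x axis. Pale bars are rows outside the window. Xcl1 had a peak over its start and 1 in its body inside a region of 5.80 kb, and 1 peak 18.2 kb upstream at the edge of a region of 15.8 kb.

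**Figure D3:**
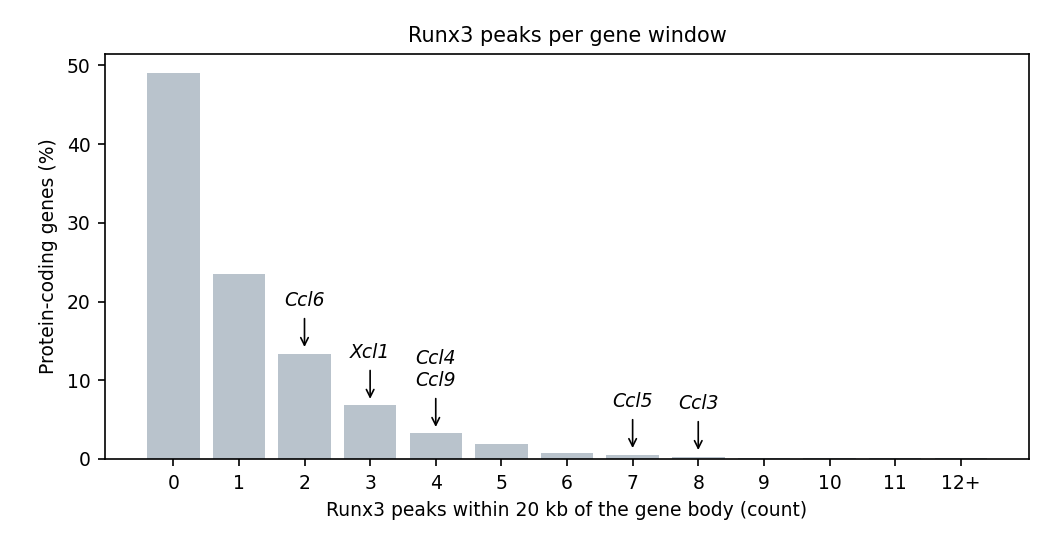
Percentage of the 22350 protein-coding genes (y axis) by the number of Runx3 peaks within 20 kb of the gene body (x axis, 12 or more pooled). Arrows mark the 6 chemokine genes, from Ccl6 with 2 to Ccl3 with 8. Without a peak were 49.0% of genes.

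H3K4me1 was broad at the same loci. The mark covered 91.3% of the Ccl3 window, 71.1% at Ccl5, 57.9% at Ccl9, 55.0% at Ccl4, 38.0% at Ccl6 and 25.4% at Xcl1. The median over protein-coding genes was 7.38%, and 0.0403% of them had as much cover as Ccl3, 0.206% as much as Ccl5 and 13.8% as much as Xcl1. The order of the genes by cover was that by Runx3 peaks, except that Ccl6 and Xcl1 changed places and that Ccl4 and Ccl9 had equal numbers of peaks. Both lists were called against the same NIS library, and windows share rows, so no relation between the 2 measures was computed.

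The start sites of all 6 genes lay inside an H3K4me1 region, as did 34.5% of protein-coding starts. The regions themselves differed in width. Ccl3 and Ccl4 shared 1 region of 21.7 kb (chr11:83459423-83481074), which took in both genes and the DNA between them, and a second of 20.4 kb (chr11:83437212-83457576) lay beyond the 3′ end of Ccl3. The Ccl5 start lay in a region of 16.7 kb (chr11:83343729-83360417) that reached 16.4 kb upstream, where 5 Runx3 peaks stood, and ended only 0.291 kb downstream of the start. A gap of 447 bp separated it from a region of 9.54 kb over most of the gene. Regions over 10 kb made up 5 of the 15, against 1.99% of all 49902 H3K4me1 regions, and the median width was 6061 bp against 1801 bp.

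The Ccl9 start lay in a region of 6.06 kb, and the Ccl6 start in a region of 1.54 kb (chr11:83405737-83407277) that reached 0.688 kb upstream. At Ccl6, 60.6% of all H3K4me1 regions were at least as wide, whereas the region shared by Ccl3 and Ccl4 was matched by 0.283%. Neither of the regions over the Ccl9 and Ccl6 starts held a Runx3 peak. H3K4me1 covered 16.4% of the body of Ccl6, and 88.1% or more of the bodies of the other 5 genes. The Xcl1 start lay in a region of 5.80 kb (chr1:166861798-166867599) that took in nearly the whole gene.

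All 23 Runx3 peaks lay with every base inside an H3K4me1 region (100%, interval 85.7 to 100%). By a shared base the 23 of 23 stood beside 95.7% of all 15524 peaks, and by the midpoint, inside a region for all 23 (interval 85.7 to 100%), beside 83.6%. The 23 peaks lay in 10 regions, so they are not independent of each other. On a scale from 0 at the edge of the region to 1 at its centre, the median place of the 23 midpoints was 0.691, from 0.156 for Xcl1 peak 3 to 0.969 for Ccl9 peak 3. Regions without a Runx3 peak numbered 5 of 15. By position, 17 peaks were intergenic, and 3 of 23 midpoints lay within 1 kb of any annotated start, 5 at 1 to 5 kb and 15 farther away.

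The RUNX consensus (the form TGTGGT or the form TGTGGC, and likewise TGCGGT with its relative TGCGGC, searched on both strands) occurred in all 23 peaks (100%, interval 85.7 to 100%), against 93.3% of all Runx3 peaks. In the central 200 bp it occurred in 16 (69.6%, interval 49.1 to 84.4%), against 69.2% of all peaks, so the members stood at the background. There were 75 matches, from 1 to 7 per peak with a median of 3. The form TGTGGT gave 50 of them and was present in 22 peaks, and TGTGGC gave 19 in 14 peaks. TGCGGT and TGCGGC, which contain a CpG, gave 3 each, in 2 and 3 peaks. Over all Runx3 peaks the 4 forms occurred in 65.5%, 54.1%, 24.7% and 26.1%, in that order. These are counts in whole peaks of unequal length, and 15 of the 23 peaks were wider than the list median.

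The closest match stood a median of 44.0 bp from the midpoint, against 48.0 bp over all 14479 Runx3 peaks with a match. Distances ran from 1 bp at Ccl6 peak 1 and 5 bp at Ccl3 peak 5, over the Ccl3 start, to 254 bp at Ccl3 peak 1. The 7 peaks without a central match were Ccl5 peaks 3 and 6, Ccl3 peaks 1, 2 and 4, and both Ccl4 peaks. Hence the peaks over the starts of Ccl3 and Xcl1 had a central match and that over the Ccl4 start did not, its closest match lying 126 bp from the midpoint. Ccl9 peak 4 had 6 matches, and the widest peak, Ccl3 peak 1, had 7.

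**Figure D4:**
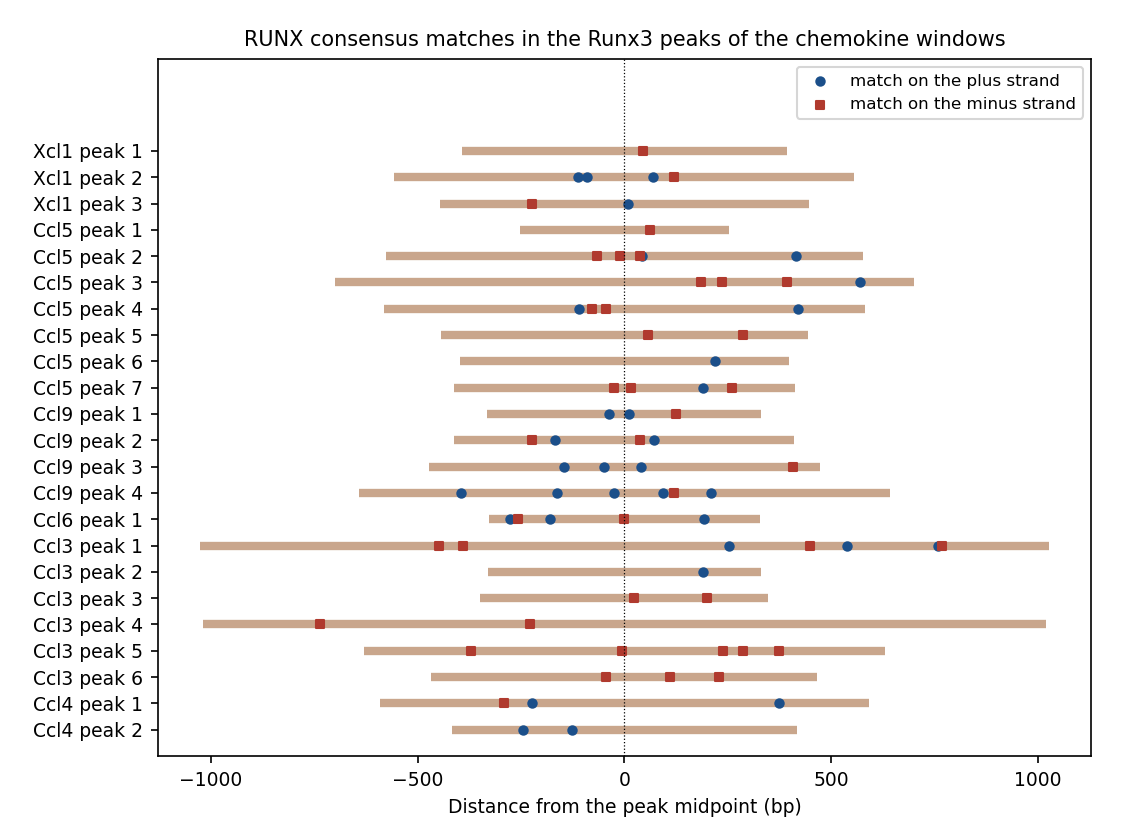
RUNX matches in the 23 Runx3 peaks, with the distance from the peak midpoint in bp on the x axis and 1 line per peak. The brown bar is the extent of the peak, blue circles are matches on the plus strand and red squares matches on the minus strand. The closest match stood between 1 bp (Ccl6 peak 1) and 254 bp (Ccl3 peak 1) from the midpoint. In 16 of the 23 peaks a match lay in the central 200 bp.

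The ETS consensus, AGGAAGT or CGGAAGT on either strand, was counted because ETS factors share many regions with RUNX factors in lymphocytes. It occurred in 13 of 23 peaks (56.5%), against 41.8% of all Runx3 peaks. These are not equal lengths, since 15 of the 23 peaks were wider than the list median. In the central windows, which are of equal length, it occurred in 5 of 23, near the background of 20.1%. Ccl3 peak 4 held 4 of the 18 matches. No ETS match shared a base with a RUNX match. Among the promoter windows, Ccl5, Ccl6 and Xcl1 held 1 ETS match each, within 56 bases of the start (13.7% of protein-coding promoters had any).

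The remaining chemokine genes were set beside the 6 for comparison, as values without a test. Of 34 listed genes, 32 had 1 entry in the annotation, and 5 of these had a Runx3 peak within 20 kb. With 5 kb this was 1 gene and with 50 kb it was 10. None of the 32 had a Runx3 midpoint within 1 kb of a start, 5 had their start in an H3K4me1 region, and the median cover of their windows was 0%, with a highest value of 34.2% at Cxcl16. The most peaks were 5 at Ccl1, whose body spans a long stretch in this annotation and whose nearest peak lay 91.0 kb from its start. Next came Ccl17 and Cxcl16 with 2 each. Ccl2, Ccl7, Ccl8, Ccl11 and Ccl12, monocyte and eosinophil attractants that lie with Ccl1 in another group on chromosome 11, had 0 peaks, and the H3K4me1 cover of their windows ran from 0 to 2.90%.

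The receptor genes Ccr1, Ccr3 and Xcr1 lie on chromosome 9. Ccr3, which binds Ccl5, had 5 peaks and 40.9% cover, and Xcr1 had 2 peaks and 24.8%. Ccr1, a receptor of Ccl3, Ccl5, Ccl6 and Ccl9, had 0 peaks and 5.74% cover.

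**Figure D5:**
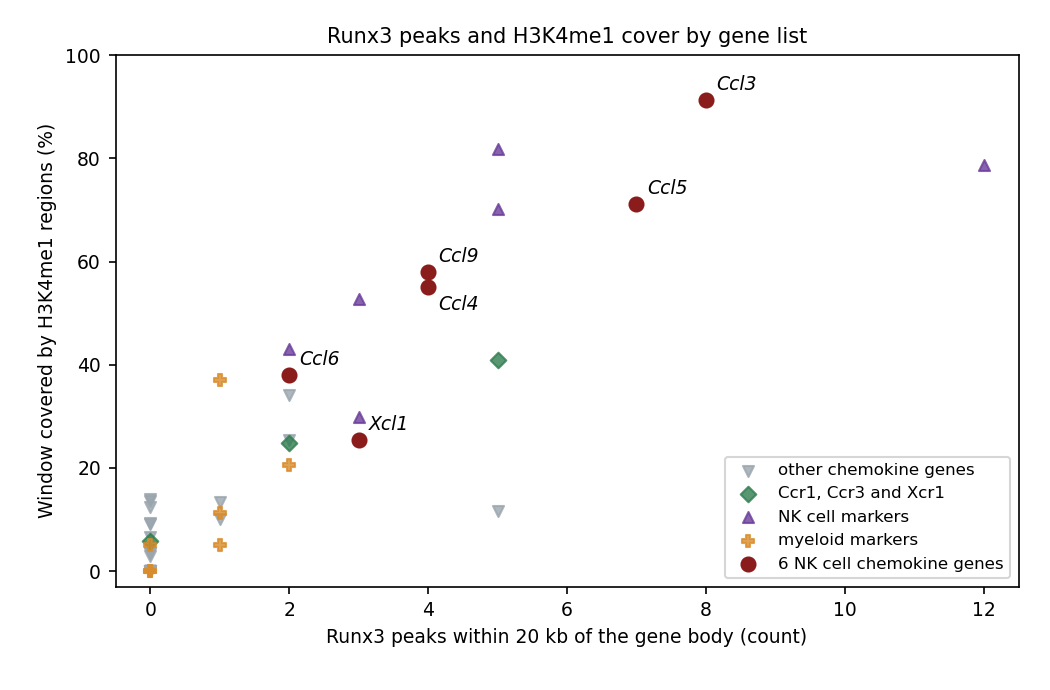
Number of Runx3 peaks (x axis) and percentage of the window covered by H3K4me1 (y axis) for windows of 20 kb on either side of the gene body. Each symbol is 1 gene of the lists named in the key. The 6 chemokine genes run from 2 peaks at Ccl6 to 8 at Ccl3, and from 25.4% cover at Xcl1 to 91.3% at Ccl3, and most of the other 32 chemokine genes stand at 0 peaks.

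Marker genes were checked as chromatin, since expression was not measured in these libraries. All 6 NK cell markers (Ncr1, Klrb1c, Klrk1, Prf1, Gzmb and Eomes) had a peak within 1 kb of a start, against 27.2% of all protein-coding genes. Their cover lay between 29.8% and 81.9%. Within 20 kb of the gene body, Klrb1c had 12 peaks, Klrk1 and Prf1 5 each, Ncr1 and Eomes 3 each, and Gzmb 2. This range takes in that of the 6 chemokine genes, from 2 at Ccl6 to 8 at Ccl3. With 20 kb on either side, as for the 6 chemokine genes, a Runx3 peak was found at 4 of 5 B cell, 2 of 5 T cell and 4 of 7 myeloid markers. The share over all protein-coding genes was 51.0%. Long genes such as Pax5 and Emr1 have longer windows than the chemokine genes. The most were 3 at Cd79a, of the B cell receptor, and 2 each at Pax5, Cd3e and Cd14. Peaks at a start were found at 0 of 5 B cell, 0 of 5 T cell and 0 of 7 myeloid markers, beside the 27.2% of all protein-coding genes. Their covers ran from 0 to 28.2%, 0 to 27.3% and 0 to 37.0%. Cd8a, Cd8b1, Ms4a1, Lyz2 and Emr1 had 0 peaks and 0% cover. Ccl6 and Ccl9 are also made by myeloid cells, and whether other cells contributed to their regions was not tested.

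Only uniquely aligned reads were used for the lists, so reads from repeated DNA were not counted. Of the start positions in the windows, 84.2% at Xcl1, 89.0% at Ccl9 and 95.2% to 97.9% at the other 4 genes opened a word of 40 bases, the read length, that occurs once in mm9. Within the 23 peaks the lowest share was 84.4%, at Ccl9 peak 2, and the median was 100%. The shares for the gene bodies ran from 96.3% to 100%, counting exact matches only.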

How the data were processed

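ChIP-seq regions of resting splenic NK cells were analysed for 3 samples, 1 each for Runx3, H3K4me1 and NIS. The authors aligned 40 bp reads to mm9 with ELAND (CASAVA 1.7 in the submitters' processing notes), kept unique alignments, joined their biological repeats and called regions with MACS against NIS, as the study's methods state. The deposited values are region coordinates, and the NIS library has no list of its own. The GENCODE annotation and the NCBIM37 sequence, both of the mm9 build, gave gene positions and DNA, and 1 region ended past a chromosome end.

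Regions were counted in a window when they shared at least 1 bp with it, in Python 3.11.15 with numpy 2.4.6. Midpoints were used for distances, and coordinates are 1-based. The reference sequence is not that of the ICR strain. Counting and motif search were tested on simulated data. Named beyond the 6 genes are the 3 other chemokine genes with the most peaks, those of the same chromosome cluster, and receptors, by a fixed rule, and 1 listed gene is not reported here. Members and lists were chosen with earlier results of these data known. Alternatives changed the window, the overlap rule, the minimum width, merging, the start rule and the motif rule.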

Additional observations from a re-analysis of the deposited data

How the results depend on the processing

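Across 7 results 28 alternatives were run, and 20 left the value within 1.5 times a count or within the interval of a share. The number of distinct peaks, 23, became 9 with 5 kb on either side and 15 with only peaks wider than the list median. Cover summed over the 6 windows was 56.1% and became 64.0% with 5 kb, 54.9% with 50 kb and 54.1% with only the wider H3K4me1 regions. The interval for cover counted 263161 single bases, which are not independent. It was therefore very narrow, and even small changes of cover were tallied as outside it. The share of peaks with a RUNX match fell from 100% to 69.6% in the central 200 bp, which are fewer bases. The 5 other chemokine genes with a peak became 1 with 5 kb and 10 with 50 kb. The 3 starts with a peak and the full overlap with H3K4me1 kept their values under each alternative run. No paired analysis was possible because each antibody has 1 list. Lists of coordinates cannot show the strength of a region, and regions that the calling threshold missed are not seen.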

Other observations

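Consensus sequences of factors that act on chemokine genes in activated lymphocytes were counted in the 23 peaks. The NF-kB consensus occurred in 6 peaks (26.1%), against 14.0% of all Runx3 peaks, with 9 matches. Of the 3 in Ccl5 peak 2, a pair on opposite strands overlapped, as did the 2 in Ccl3 peak 6, so these are not separate sites. In the central 200 bp it occurred in 2 of 23 peaks, against 3.72% of all. The promoter windows of Ccl5 and Ccl9 held 1 NF-kB match each, and 5.94% of protein-coding promoters of that length held any. The AP-1 consensus, TGACTCA or TGAGTCA, occurred in 6 peaks (26.1%), against 16.5% of all peaks, and 4 of these were Ccl5 peaks, 1 in the intron and 3 in the upstream series. In the central 200 bp it occurred in 2 of 23, against 5.49% of all. The T-box sequence AGGTGTGA, the kind bound by T-bet and Eomes, occurred in 3 peaks (13.0%), against 5.92%, namely Ccl3 peak 1 and both Ccl4 peaks, and in the central 200 bp in 0 of 23, against 2.23% of all. With 23 peaks these shares are imprecise, and no test of them was run. The 23 peaks were also wider than the list, with a median of 891 bp against 825 bp.

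Ccl6 peak 1 was the only 1 of the 23 peaks inside the noncoding gene E230016K23Rik. At Xcl1, the region of 15.8 kb that holds Xcl1 peak 3 held 3 Runx3 peaks in all, the others lying beyond the 20 kb window.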
